A study of Mus musculus with 6 samples.

Results

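The cytoplasmic ribosomal protein genes encode the proteins of the small (Rps) and large (Rpl) ribosomal subunits, and were taken here as the 82 protein-coding genes, of 21951 in GENCODE mouse release 21, whose symbols follow the Rpl, Rps, Rplp and Rpsa naming pattern. Kinase genes of the Rps6k family and pseudogenes were left out. The pattern also misses some ribosomal protein genes, among them Rps3a1, Rpl36al, Fau and Rack1, which are described separately. Of the 82 members, 31 belong to the small and 51 to the large subunit. The choice of members used no measured value.

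Dimethylation of lysine 79 in histone H3, H3K79me2, was mapped by ChIP-seq in N2a, a mouse neuroblastoma cell line in common use. CTR cells were transfected with the pLKO.1-shCTR plasmid and NPM1 KD cells with pLKO.1-shNpm1, a short hairpin RNA against Npm1, and both were fixed on day 3. Per the study's methods, cells of the knockdown experiments were selected with puromycin. Each group had 2 libraries. Per the study's methods, each replicate was a different passage of the line with its own transfection batch, so p-values measure the spread between these samples. Whether CTR and NPM1 KD libraries of the same number shared a passage and batch is not stated, and the main test did not pair them. A hairpin lowers NPM1 without removing it. Values of the 4 libraries are given in the order CTR 1, CTR 2, NPM1 KD 1 and NPM1 KD 2 wherever no library is named.

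H3K79me2 is written by DOT1L, a methyltransferase that travels with elongation factors, and the mark lies over the first part of actively transcribed genes. Ribosomal protein genes are short, are among the most strongly transcribed housekeeping genes, and many start transcription within a run of pyrimidines, the terminal oligopyrimidine or TOP motif, through which mTOR and LARP1 control translation of the mRNA. NPM1 is a nucleolar protein that takes part in ribosome assembly and binds DOT1L. The comparison therefore asked how the mark at the genes for ribosomal proteins stood in cells with less NPM1.

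The start sites of a few members are printed first, because a pyrimidine run at the start was more frequent among members than among all genes and was not used by the symbol pattern. RefSeq promoters on GRCm38.p6 matched 62 of the 82 members. Each stretch below holds 30 bases, written 5′ to 3′ on the strand of the gene, with the start site at base 16 and the longest unbroken run of C or T near the start in capitals. Rpl7a (chr2:26910792-26910821, plus strand), Rpl35 (chr2:39005117-39005146, minus strand) and Rpl15 (chr14:18270972-18271001, minus strand) had the longest runs that lie whole in such a stretch. Rps6 (chr4:86857353-86857382, minus strand), the target of S6 kinase, Rplp2 (chr7:141447636-141447665, plus strand), a protein of the acidic stalk, and Rps27 (chr3:90213634-90213663, minus strand) hold runs of 10, 10 and 9 bases, above the member median of 7. Rpl10l (chr12:66284387-66284416, minus strand) and Rpl3l (chr17:24732670-24732699, plus strand) are the members without the mark.
Rpl7a: aTTCCCTCTTCTTTCTTTCTCCagcagccg
Rpl35: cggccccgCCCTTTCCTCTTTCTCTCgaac
Rpl15: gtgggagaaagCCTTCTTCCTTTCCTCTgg
Rps6: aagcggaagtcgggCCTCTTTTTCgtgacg
Rplp2: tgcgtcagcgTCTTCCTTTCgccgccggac
Rps27: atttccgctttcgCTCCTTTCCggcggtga
Rpl10l: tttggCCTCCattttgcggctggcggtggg
Rpl3l: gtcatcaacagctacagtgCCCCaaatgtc
A run of at least 8 bases of C or T within 25 bases of the start was present in 34 of the 74 RefSeq starts of members (45.9%), beside 6539 of all 32851 starts (19.9%). On the opposite strand, read as a run of A or G of the same length, the shares were 6 of 74 (8.11%) and 22.0%. The starts of mitochondrial ribosomal protein genes held the C or T run in 22.7%. Members with such a run and members without it had nearly the same peak height: the medians of the highest fold were 33.8 and 31.0 in CTR 1, and 22.8 and 22.5 in NPM1 KD 2. Each of these medians was over 30 members. A match of letters is a description, and no match says only that the letters were not in this window.

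The files hold peaks called by MACS2 in each library, with no read counts. Narrow lists give the summits and broad lists the extent of a domain. The fold of a narrow peak is the pileup of fragments at its summit plus 1 over the background plus 1, where the background was that of the whole library at all 80 marked members in 3 libraries and at 76 of 80 in CTR 2. Solving fold and p together returned whole pileups for 80 of 80 marked members in every library, and background pileups of 11.9, 7.65, 8.99 and 11.8, a relative measure of depth; whole was taken as within 0.05. The lowest, median and highest pileup at the member summits was 100, 383.5 and 861 in CTR 1 and 80, 253.5 and 566 in CTR 2. In NPM1 KD 1 it was 73, 266.5 and 589, and 93, 288 and 521 in the other NPM1 KD library. As a check of the line, 7 of 10 neuroblastoma genes carried a broad peak in every library, among them Hand2 and Th, whereas Dbh and Nefl had none. Of 13 genes that mark other cell types only Apoa2 did. Npm1 itself carried the mark, with folds of 36.9 and 34.1 in CTR and 35.8 and 24.5 in NPM1 KD. A chromatin mark at the gene does not check the knockdown of its RNA. The paper reports less NPM1 protein in the NPM1 KD replicates by immunoblot.

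Nearly every ribosomal protein gene was marked. A broad peak reached the gene body or the 3 kb upstream of it, together called the window, in all 4 libraries at 80 of 82 members (97.6%). This was the case for 51.2% of all protein-coding genes and for 35.2% of those of 10 kb or less. All 78 mitochondrial ribosomal protein genes carried a broad peak in all 4 libraries as well, and so did Rps3a1, Rpl36al, Fau and Rack1. The mark was thus shared by the protein genes of both kinds of ribosome.

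The 2 members without a peak in any narrow or broad list were Rpl3l and Rpl10l. Rpl3l (chr17:24727820-24736143, plus strand) encodes the form of RPL3 found in striated and heart muscle. Rpl10l (chr12:66283379-66284401, minus strand) is an intronless copy of Rpl10 used in the testis. Their parent genes were marked in every library. Rpl3 (chr15:80077791-80091868, minus strand) had highest folds of 29.2 and 28.6 in CTR and 26.6 and 22.5 in NPM1 KD, and X-linked Rpl10 (chrX:74270812-74273135, plus strand) had 12.0 and 13.2 in CTR and 11.5 and 11.7 in NPM1 KD. Reads that fit both a gene and its processed copies are lost when uniquely mapping reads are retained, so a value over exons of such genes is less certain than one over introns. The strongest CTR 1 summit lay in an intron in 50 of the 80 marked members, in an exon in 29 and past the 3′ end of the gene in 1, Rpl36. In all 4 libraries the peak that gave Rpl36 its value had its summit past that end, and in CTR 1 this was inside the neighbouring gene Lonp1, so its height may not be its own. In CTR 1 the summits of 4 other members also lay inside a second annotated protein-coding gene.

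The other duplicated members all carried the mark, at different heights. Rpl39l (chr16:10170226-10174911, plus strand), the copy of Rpl39 found mostly in testis, was the lowest member in each library, with folds of 7.84, 9.37, 7.41 and 7.36. Its summit pileup in CTR 1 was 100 (exact 95% Poisson interval 81.4 to 122), which like the intervals below covers counting error only. Rpl22 (chr4:152325742-152334071, plus strand) was the highest member in CTR 1 and NPM1 KD 1, with folds of 66.9, 62.2, 59.1 and 38.7 in the same order. Its CTR 1 pileup was 861 (804 to 920.5). The highest was Rpl19 in CTR 2 (62.9) and Rpl11 in NPM1 KD 2 (40.8). Rpl22l1, the paralog of Rpl22, had 23.8, 21.9, 24.0 and 17.1, below Rpl22 in every library. Rpl7 and its paralog Rpl7l1 were close to each other, with 23.5 and 23.3 in CTR 1 and 20.4 and 20.8 in NPM1 KD 2. Rps27l, the p53-induced copy of Rps27, had 17.3, 11.6, 15.2 and 13.2, below the 20.95, 21.2, 19.3 and 18.6 of Rps27. A fold is a height at 1 point and is not summed over length, although a longer gene offers more points from which the highest is taken.

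**Figure D1:**
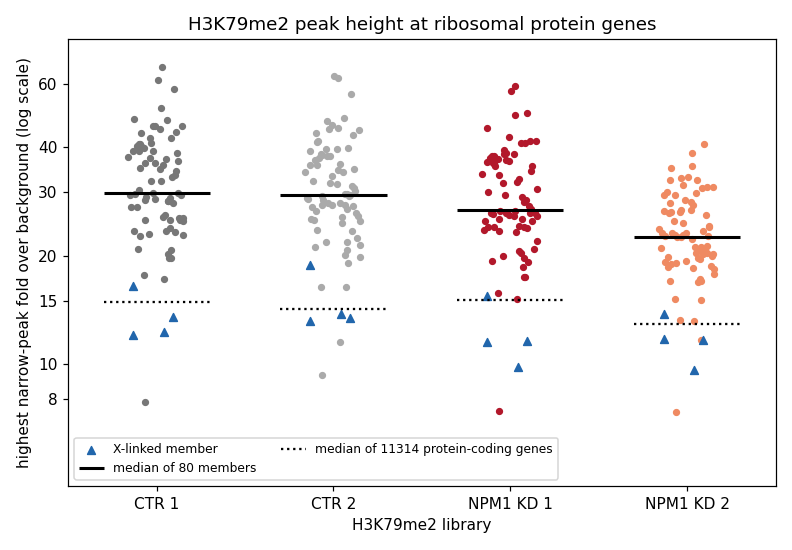
Highest narrow-peak fold over background (log scale) of each of the 80 marked ribosomal protein genes in the 4 H3K79me2 libraries. Each point is 1 gene, triangles are the 4 X-linked genes, the solid bar is the median of the 80 and the dotted bar the median of the 11314 protein-coding genes tested. Most points lie above the dotted bar in every library, and the solid bar is lower in both NPM1 KD libraries (26.8 and 22.6) than in both CTR libraries (29.8 and 29.4).

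The members stood high among marked genes. Their median highest fold was 29.8, 29.4, 26.8 and 22.6, whereas the medians over the 11314 protein-coding genes with a narrow peak in all libraries were 14.9, 14.2, 15.1 and 12.9. The strongest peak of the median member had a percentile of 98.4, 98.4, 98.3 and 98.3 among all peaks of its own list, beside 94.3, 93.2, 94.7 and 94.3 for the median of all genes tested. Translation factors and other genes linked to TOP mRNAs, a list given below, stood higher than the members, at 99.3, 99.2, 99.4 and 99.2. Rpl22, Rpl19, Rpl11, Rpl31 and Rpl7a had the highest folds averaged over the libraries. Small and large subunit genes did not stand apart, with medians of 29.8 and 29.9 in CTR 1 and of 22.7 and 22.5 in NPM1 KD 2. The mitochondrial ribosomal protein genes had medians of 16.3, 16.2, 16.6 and 14.4, near those of all genes.

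By role, the stalk genes Rplp0, Rplp1 and Rplp2, whose proteins recruit elongation factors, were marked at unequal height. Rplp0 had 36.7, 30.2, 35.4 and 24.3, Rplp2 had 34.4, 27.5, 26.2 and 21.4, and Rplp1 had 23.5, 25.3, 24.0 and 19.2, where the groups overlapped at Rplp0 and Rplp1. The genes of the 5S particle that holds MDM2 and thereby stabilises p53, Rpl5 and Rpl11, were both in the upper part of the members, with 43.9 and 41.7 in CTR and 37.9 and 26.5 in NPM1 KD for Rpl5, and 58.1 and 56.3 in CTR and 49.8 and 40.8 in NPM1 KD for Rpl11. Rpl23, which also binds MDM2, had 45.9, 44.6, 41.7 and 31.1. For these 3 genes both NPM1 KD values lay below both CTR values, as in 24.2% of all genes tested. That share was 55.0% of genes with a mean fold of 30 to 40 and 67.6% of genes above 40. Rps19 and Rps14, the genes affected in Diamond-Blackfan anaemia and in the 5q- syndrome, had folds of 40.7, 43.8, 36.1 and 28.0 (Rps19) and of 28.6, 29.4, 25.2 and 22.8 (Rps14). Rpl13a, which takes part in the silencing of inflammatory mRNAs, had 29.9, 31.8, 26.2 and 22.8. Rps27a, a fusion of ubiquitin and a ribosomal protein, had 25.5 and 24.98 in CTR and 25.8 and 20.3 in NPM1 KD, so that its groups overlapped. Among the genes outside the naming pattern, Rack1, a scaffold on the small subunit, had 35.8, 36.3, 29.6 and 27.9.

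The 4 X-linked members were lower than most, an observation made after the values were seen. Rpl10, Rpl36a, Rpl39 and Rps4x had a median fold of 12.9, 13.6, 11.6 and 11.7, whereas the 76 autosomal members had 31.4, 29.6, 27.8 and 22.8. All X-linked genes with a peak were low too, with medians of 7.45, 7.52, 7.41 and 6.57, beside 15.2, 14.5, 15.4 and 13.2 for autosomal genes. Rpl39, at the exit tunnel of the large subunit, had 12.3 and 13.8 in CTR and 9.81 and 9.62 in NPM1 KD. Rps4x had 13.5, 13.4, 11.6 and 11.7, and Rpl36a 16.5, 18.8, 15.5 and 13.8. In these folds both NPM1 KD values lay below both CTR values at all 4 genes, beside 28.0% of all genes tested. After centring each library on its median over all genes, the groups overlapped at Rpl10. At the other 3 both NPM1 KD values lay below both CTR values, beside 26.3% of all X-linked genes tested. With quantile normalisation, described below, X-linked genes as a whole had a median log2 difference of -0.09, beside -0.0052 over all genes. Both NPM1 KD values then lay below both CTR values in 3 of the 4 members and 34.6% of X-linked genes, beside 17.1% of all genes. The X-linked members lay above the other X-linked genes by median, as the autosomal members lay above the other autosomal genes. The number of copies of each chromosome in the line was not measured here.

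The mark covered the whole of most members. Over the body of the median member 100% was covered, and 39.6% of the 3 kb upstream, where the same medians over all genes with a broad peak in every library were 55.3% and 9.88%. Genes of 10 kb or less were closer, with 83.2% and 28.8%, as were mitochondrial ribosomal protein genes, with 82.2% and 28.0%. The upstream median was 10.2% in the 46 marked members with no other protein-coding gene in the window. In the 34 members with such a neighbour it was 81.6%. The comparison sets were not split by neighbours. In the window as a whole the median over members was 71.2%, 67.2%, 73.1% and 71.2%. Over all genes it was 49.4%, 45.9%, 53.9% and 50.8%, and over genes of 10 kb or less 60.5%, 57.3%, 64.7% and 61.3%. The windows of 11 members, Rpl12, Rpl15, Rpl18, Rpl35, Rpl37, Rpl7a, Rpl9, Rps13, Rps18, Rps21 and Rps25, were covered to 100% in all 4 libraries. The least covered windows were those of Rps14, Rps29 and Rpl41. Rps29 had 33.9%, 34.2%, 33.4% and 33.3%. Rps14 had 31.6%, 33.2%, 34.9% and 32.5%, and its annotated gene is 31449 bp long and more than 2 times the main transcript, as is the case for 6 members, among them Rpl11, so its window holds much that is not its usual transcript. Rpl41, which encodes a very short peptide of the large subunit, had 43.4% and 23.9% in CTR and 47.6% and 25.5% in NPM1 KD, so the libraries numbered 1 were high and those numbered 2 low in both groups.

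The position of the strongest summit of a gene was taken as its median over the 4 libraries. The strongest summit lay downstream of the transcript start in 80 of 80 members, at a median distance of 543 bp (quartiles 412 and 734 bp). Over all genes the median was 859 bp, with quartiles of 370 and 2022 bp. It was 665.5 bp for genes of 10 kb or less and 535 bp for mitochondrial ribosomal protein genes. Within a member the strongest summit moved between libraries, with a median spread of 214.5 bp. The summits lay within 200 bp in all 4 libraries at 37 of 80 members. RefSeq starts lay at a median of 24 bp from the starts used here. The broad peaks at the start reached 1056 bp upstream of it and 1831 bp past the 3′ end of the transcript in the median member, and they went past the end in 71 of 80. The members whose mark stopped within the transcript included Rpl10, Rpl19, Rpl3, Rpl4, Rpl5, Rps19, Rps27l and Rpsa. Among all genes with such a peak 1864 of 10034 were covered past their end, and the median edge lay 8843 bp before it (-8843 bp). Members are short, with a median gene length of 3328.5 bp against 17403 bp over all genes, and among genes of 10 kb or less the median edge lay at -91.1 bp. In 46 marked members without another protein-coding gene in the window the mark reached 306 bp upstream and 1499 bp past the end. It cannot be told apart in these lists whether a domain that runs beyond a member belongs to it or to its neighbour.

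**Figure D2:**
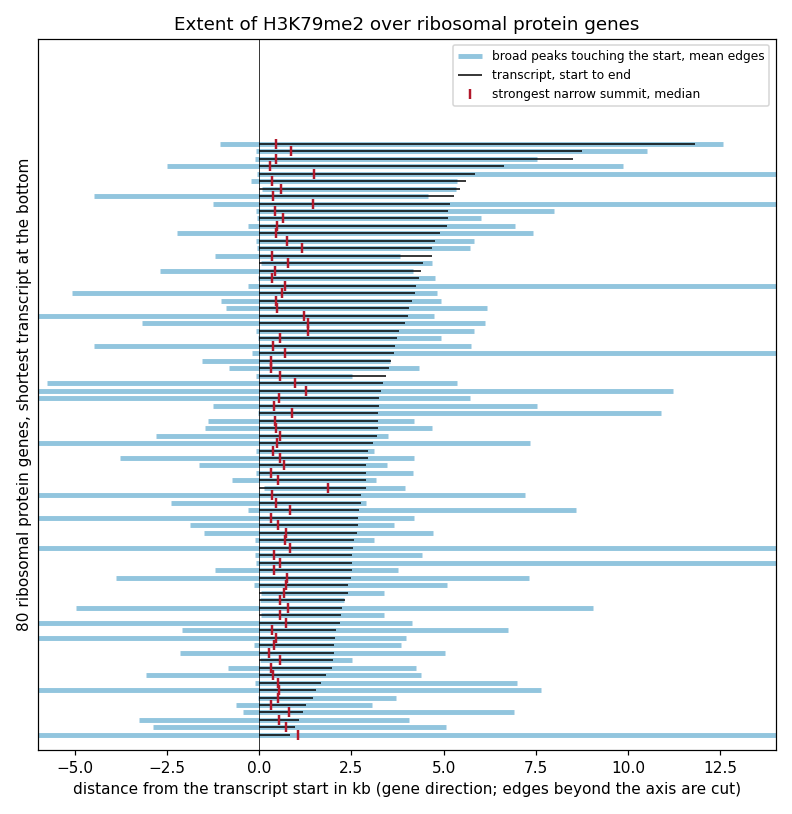
Extent of H3K79me2 at the 80 marked ribosomal protein genes. Each row is 1 gene, ordered by transcript length, the x axis is the distance from the transcript start in kb in gene direction, blue bars are the mean edges over 4 libraries of broad peaks touching the start, black lines the transcripts and red ticks the median position of the strongest narrow summit. Edges beyond the axis are cut. The blue bars run past the end of the transcript in 71 of 80 genes, and the ticks keep close to the start, at a median of 543 bp.

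The height of the mark was compared between groups after centring the log2 folds of each library on its median over all genes tested. Each fold is relative to the background of its own library, and centring removes a shift shared by all genes. The differences are therefore relative to other genes, and a change in the absolute amount of the mark was not tested. The paper reports that immunoblots of the ChIP-seq replicates showed a higher level of the mark after NPM1 KD. It also reports a test on the reads of these libraries, which called more regions with decreased than with increased H3K79me2. The paper describes these changes as subtle. The highest fold of 76 of 80 members was lower on average in NPM1 KD than in CTR, beside 6362 of all 11314 genes. The median log2 difference, NPM1 KD minus CTR, was -0.22 over members and -0.03 over all genes. In 57 of 80 members both NPM1 KD libraries lay below both CTR libraries, beside 24.2% of all genes tested, and in 0 of 80 they lay above both, beside 16.9% of all genes. Still, no member passed the test. In simulated data with the spread of these genes, it called 0 of 50 genes with a log2 change of 0.5. At a log2 change of 1 it called 25 of 50. A lack of calls at differences of the size seen here therefore does not show a lack of change. With limma and Benjamini-Hochberg adjustment over all genes 0 of 80 members were called (lowest adjusted p = 0.607). In all, 15 of 11314 genes were called, 0.133%. An unadjusted limma p under 0.05 was found for 12 of 80 members, beside 925 of 11314 genes.

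By median, strongly marked genes as a whole had a negative difference too. In genes with a mean fold of 10 to 20 the median log2 difference was -0.12 for 12 members and -0.01 for all 3899 genes, and both NPM1 KD libraries were below both CTR libraries in 58.3% of members beside 19.5% of genes. In genes with a mean fold of 20 to 30 the median log2 difference was -0.21 for 35 members and -0.11 for all 2310 genes, and both NPM1 KD libraries were below both CTR libraries in 24 of 35 members (68.6%) beside 38.1% of genes. At a fold of 30 to 40 the medians were -0.22 and -0.18, and the shares 79.2% of 24 members and 55.0% of 906 genes. Above 40 they were -0.31 and -0.26, and 7 of 8 members beside 67.6% of 315 genes. The log2 folds of all genes were less spread in the NPM1 KD libraries, with SDs of 1.03 and 1.01, than in the CTR libraries, with 1.12 and 1.11. With quantile normalisation, which gives the libraries the same spread and was chosen after seeing the data, the member median was -0.09, and 27 of 80 members had both NPM1 KD libraries below both CTR libraries, beside 17.1% of all genes. Ranked by percentile within each list, 16 of 80 did, beside 4.88%. On that scale, log2 odds of the percentile, the median difference was -0.10 over members and 0.22 over all genes. What part of the difference belongs to the members and what part to the lower enrichment of strong peaks as a whole was not tested.

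**Figure D3:**
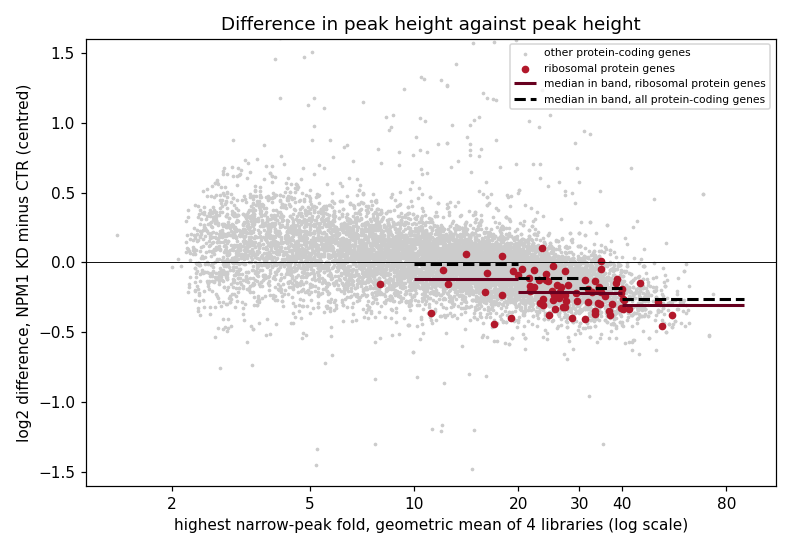
Log2 difference of the centred highest fold, NPM1 KD minus CTR, against the geometric mean fold over 4 libraries (log scale), with 1 point per gene; 25 genes lie outside the plotted range. Red points are ribosomal protein genes and grey points other protein-coding genes, and the lines give the median in each band of fold. Both lines lie lower at higher folds, and the line of the ribosomal protein genes is below that of all genes in each of the 4 bands.

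The 5 members with the largest difference among those whose groups did not overlap were Rpl19, Rps20, Rpsa, Rps6 and Rpl12. Rpl19 (chr11:98026710-98030492, plus strand), of the large subunit, had folds of 61.5, 62.9, 57.4 and 33.1. Rps20 (chr4:3831334-3835665, minus strand) had 19.7, 20.8, 17.5 and 11.7. Rpsa (chr9:120127689-120132369, plus strand), the small subunit protein also known as the laminin receptor, had 38.5, 34.8, 34.3 and 20.4. In these 3 genes NPM1 KD 2 was the lowest library, and NPM1 KD 1 lay between it and CTR. Rps6 (chr4:86854660-86857412, minus strand) had 23.0, 21.9, 20.03 and 13.3, and Rpl12 (chr2:32961559-32965345, plus strand), at the base of the stalk, had 32.3, 34.6, 26.6 and 22.3, so that at Rpl12 both NPM1 KD libraries were well below CTR. The centred log2 differences were -0.45 ± 0.19 (SE) for Rpl19, -0.44 ± 0.16 for Rps20, -0.41 ± 0.18 for Rpsa, -0.40 ± 0.15 for Rps6 and -0.40 ± 0.12 for Rpl12, each with an adjusted p of 0.607 (limma). Without NPM1 KD 2 those of Rpl19, Rps20, Rpsa and Rps6 were -0.17, -0.26, -0.14 and -0.21, and that of Rpl12 was -0.38. Without NPM1 KD 1 those of Rpl19 and Rpsa were -0.74 and -0.67.

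No member had both NPM1 KD libraries above both CTR libraries. The 4 members with a positive mean difference included Rps29, with folds of 24.9 and 21.4 in CTR and 30.7 and 18.4 in NPM1 KD, Rps27l and Rpl41. At Rps29 NPM1 KD 1 was the highest and NPM1 KD 2 the lowest library. The difference was found in both subunits, with medians of -0.21 for small and -0.22 for large subunit genes. It was -0.27 for the 29 members that host snoRNAs, small RNAs that guide the modification of rRNA, with 29 of 29 negative. For the other members it was -0.21, with 47 of 51 negative. Over all genes 6362 of 11314 were negative. The hosts also had higher folds, with a median of 34.4 against 28.7 in CTR 1. Rpl4 hosts the most, with 5 snoRNAs. For the 78 mitochondrial ribosomal protein genes the median was -0.02, with 42 of 78 below 0.

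Other genes of the translation machinery were read from lists by function. A list of 14 translation factors and other genes with TOP mRNAs or linked to them held Eef1a1, Eef2, Eif4b and Pabpc1. Npm1, the target of the hairpin, Hnrnpa1, Tpt1 and Nap1l1 were in it too. All 14 were marked in every library, and 0 of 14 passed the test in either direction. Their median log2 difference was -0.19, and 10 of 14 had both NPM1 KD libraries below both CTR libraries, beside 24.2% of all genes and 55.0% of those with a fold of 30 to 40. With quantile normalisation their median was -0.0085. Both NPM1 KD libraries were then below both CTR libraries in 3 of 14, beside 17.1% of all genes, and above both in 3 of 14, beside 15.5%. Their median fold in CTR 1 was 37.4. Eef2, the translocation factor of elongation, had folds of 41.6 and 43.6 in CTR and 36.4 and 29.4 in NPM1 KD. Of the 11 regulators of translation 0 passed and the median was -0.18, or -0.03 with quantile normalisation. Both NPM1 KD libraries were below both CTR libraries in 5 of 11, beside 24.2% of all genes, and above both in 1, beside 16.9%. With quantile normalisation they were below in 1 of 11, beside 17.1%. Larp1, which binds the TOP motif, had 57.7, 52.3, 49.9 and 38.0. Both its NPM1 KD values were below both CTR values, as in 67.6% of genes with a mean fold above 40. Mtor had 19.6, 20.4, 19.2 and 23.0. Of 8 chaperones and loading factors of ribosomal proteins, Nap1l1 again among them, 0 passed, with a median of -0.11, or -0.02 with quantile normalisation. Tpt1, itself a strongly translated TOP mRNA, had low folds of 9.16, 10.8, 10.4 and 10.1.

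The extent of the mark at members was compared as covered length in the window and as the full length of the broad peaks that reach it, both on the log2(bp + 1000) scale, which understates the change of short domains. Covered length had a median log2 difference of 0.01 for members and 0.08 for all genes. The 2 NPM1 KD values exceeded the 2 CTR values in 23 of 80 members, beside 46.7% of all genes, and below both in 4 of 80, beside 2.89%. In limma 0 of 80 members were called, of 1 gene in all, 0.00843% of 11863. An unadjusted limma p under 0.05 was found for 6 of 80 members, beside 1806 of 11863 genes. Windows that are already full cannot gain, so the count of members is bounded by the 11 full windows and by those near it. Without CTR 1 the count of members was 45 of 80, beside 73.1% of all genes, and without NPM1 KD 2 it was 40 of 80, beside 74.1%.

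The full length of the domains is not bounded by the window. Its median log2 difference was 0.04 for members and 0.10 for all genes, and both NPM1 KD libraries were above both CTR libraries in 25 of 80 members, beside 50.1% of all genes, and below both in 3 of 80, beside 2.7%. The count was 52, 39 and 49 of 80 without CTR 1, without NPM1 KD 1 and without NPM1 KD 2, beside 75.6%, 57.0% and 78.1% of all genes. One member was called by limma, of 33 genes in all (0.278%). Rps15 (chr10:80292453-80294114, plus strand), a small subunit protein, had domains of 2995 bp in CTR 1 and 3302 bp in CTR 2, and of 11411 bp and 10645 bp in NPM1 KD. The log2 difference was 1.54 ± 0.07 (SE; limma, adjusted p = 0.0456). The upstream edge lay 96 to 114 bp upstream of the start in all 4 libraries, and the added length lay past the 3′ end, where the edge lay at 1219 and 1544 bp in CTR and at 9636 and 8883 bp in NPM1 KD. The covered part of its window was 38.1%, 37.7%, 38.1% and 37.8% in the 4 libraries. The average fold of that broad peak was 15.4 and 15.03 in CTR and 7.94 and 6.94 in NPM1 KD, while the highest narrow fold, 29.8, 30.8, 26.9 and 22.7, was not called. The call on length was lost with the replicate number as a block (limma, adjusted p = 0.252), without each library in turn (limma, adjusted p from 0.189 to 0.400), and with narrow peaks merged within 1 kb (difference 0.86, limma, adjusted p = 0.696).

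**Figure D4:**
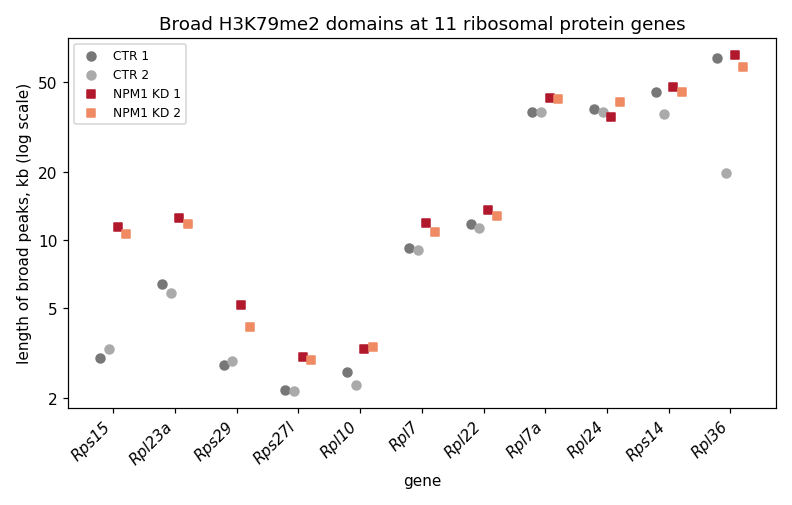
Total length of the broad peaks reaching the window, in kb on a log scale, for 11 ribosomal protein genes, with circles for the CTR and squares for the NPM1 KD libraries. At Rps15 and Rpl23a both squares lie well above both circles, and at Rpl36 CTR 2 (19765 bp) stands apart from the other 3 libraries, which lie between 58413 and 66335 bp.

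Rpl23a, with 6408 and 5842 bp in CTR and 12568 and 11835 bp in NPM1 KD, came next (log2 difference 0.89 ± 0.07, SE) and did not pass (limma, adjusted p = 0.0966). At Rpl23a the domain touching the start kept its edges, 2152 and 1957 bp past the end in CTR and 2105 and 2052 bp in NPM1 KD, and the window held 1 broad peak in each CTR library and 2 in each NPM1 KD library. Rps29 had 2806 and 2930 bp in CTR and 5177 and 4131 bp in NPM1 KD, and Rps27l 2164, 2153, 3051 and 2943 bp. The longest domains were those at Rpl36 (64012, 19765, 66335 and 58413 bp), Rps14 and Rpl7a. The Rpl36 domain in CTR 2 reached 2973 bp upstream, where it ran 44732 to 50934 bp upstream in the other libraries, so in CTR 2 alone the domain was broken there. Rpl7a had 36954 and 36940 bp in CTR and 42523 and 42338 bp in NPM1 KD. These long domains hold several genes, and 34 of the 82 members have another protein-coding gene in the window.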

How the data were processed

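H3K79me2 ChIP-seq libraries of N2a cells (2 CTR, 2 NPM1 KD) were analysed; the 2 pooled inputs have no peak list among the files used here. Per the labels, the authors trimmed reads with Trimmomatic 0.38, aligned them to mm10 with Bowtie2 2.3.4.1 and called narrow and broad peaks per library with MACS2 (2.2.6 in the submitters' notes); whether the input served as background is not given in the sources used here. The deposited lists give a score, a fold over background (a ratio), and p and q values as −log10. Per the study's methods, uniquely mapping reads (mapq above 5) were retained.

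Windows were GENCODE M21 protein-coding genes with 3 kb upstream. Covered length and broad domain length were taken as log2(bp + 1000) in genes with a broad peak in at least 1 library. The highest fold of narrow peaks overlapping a window was taken as log2 and centred on each library's median, in genes with a narrow peak in all 4 libraries. Groups were compared with limma 3.58.1 (R 4.3.3), Benjamini-Hochberg adjustment over all genes and a threshold of 0.05; the script was tested on simulated data. Depth as read totals is unknown; exact Poisson intervals cover counting error of recovered pileups only.

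Named genes were paralogs with their parents, members by role, unmarked members, the 5 largest non-overlapping differences in each direction, the 3 most and least covered windows, the 3 longest domains, and examples from related lists. Others were named after their values were seen: the X-linked genes as a group, Rps15, Rpl23a, Rpl31, the genes whose mark ended within the transcript, and the host of most snoRNAs. Members and lists were chosen with earlier results of these data known. Alternatives were other scalings, peak lists, filters, windows, a replicate block and leaving out each library. Start sequences came from RefSeq on GRCm38.p6. A few genes are not reported here.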

Additional observations from a re-analysis of the deposited data

How the results depend on the processing

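The fold differences of Rpl19, Rps20, Rpsa, Rps6 and Rpl12 and the length difference of Rps15 kept their direction under every alternative run, and the call on Rps15 was lost under 7 of 8. For the highest fold, 15 genes were called in all; the count was 47 from the broad lists, with 1 member, Rps15, among them, 7 for folds as deposited, 1 for percentiles, 62 with no filter on genes and 55 to 83 when 1 library was left out. The median log2 difference over members, -0.22, was -0.27 as deposited, -0.10 as log2 odds of percentiles, -0.087 with quantile normalisation and -0.26 to -0.17 when 1 library was left out. For the average folds of the broad lists it was -0.17. Members with both NPM1 KD libraries below both CTR libraries numbered 16 by percentile and 27 after quantile normalisation, beside 4.88% and 17.1% of all genes. With 1 library left out they numbered 64 to 69, beside 35.9% to 41.9% of all genes. Those above both numbered 8 by percentile, beside 34.9% of all genes. They numbered 1 after quantile normalisation and 1 from the broad lists, beside 15.5% and 20.6%. For covered length, 1 gene was called; the count was 0 from narrow lists, 21 at a −log10 q of at least 5, 0 with no filter and 0 with any 1 library left out. The median covered percent was 66.3 from narrow lists and 100 in the gene body alone. In the gene body 6 members had both NPM1 KD libraries above both CTR libraries, beside 43.4% of all genes. In the whole window that count was 23, beside 46.7%, and 28 to 45 with 1 library left out, beside 51.3% to 74.1%. For domain length it was 27 to 52 with 1 library left out, beside 54.9% to 78.1%. For domain length, 33 genes were called; the count was 69 at a −log10 q of at least 5, 5 from merged narrow peaks, 9 with no filter and 0 with any 1 library left out. The cause of these shifts was not tested, except that fewer libraries were fitted where 1 was left out.

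Each replicate was a separate passage and transfection batch. Deviations of same-numbered libraries from the group means correlated at 0.259 for covered length, 0.204 for fold and 0.115 for domain length, over 2 pairs. With the replicate number as a block, 0 genes were called for covered length, 20 for fold and 0 for domain length. Depth limits the lists themselves, since a weak peak is called only where enough fragments were read.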
